A study of Arabidopsis thaliana with 2 samples.

Results

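The genes described here are 49 Arabidopsis thaliana genes, known by their AT locus code alone, whose transcripts were measured in the wild-type stem and lay below the measuring floor in the stem of plants overexpressing AtC3H14. They are called the lost genes. The word describes 2 signals and not an absence of RNA. The genes were chosen by those same signals: at least 208.0 on the wild-type array and below 104.0 on the 35S::AtC3H14 array. They come from 11796 genes with no symbol besides the locus code, read by 11931 probe sets, out of 22746 probe sets in all. The rule also leaves out plastid genes and a pair of genes, AT1G78400 and AT1G48100, which did not meet the thresholds. The differences between the arrays given for the lost genes are therefore a description of the choice and carry no test.

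Stem RNA was hybridized to the Affymetrix ATH1 GeneChip, where a set of short probes (a probe set) reads 1 transcript and gives 1 signal, an intensity on a linear scale. There was 1 wild-type sample and 1 sample of 35S::AtC3H14 plants, with 1 array each and no replicates. Both samples were of the Columbia (Col-0) background, aged 30 days and soil grown at 23 °C under days of 16 h and nights of 8 h, and the stem was taken from its base to internode 3. The 35S promoter drives expression in most plant tissues, so the transgene was not limited to the wall-forming cells of the stem, and the labels do not say how many transgenic lines or plants the sample held. With 1 array per group, no difference here could be set against variation between plants. In whole stem tissue, fewer cells of a type and less RNA per cell cannot be told apart.

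AtC3H14 encodes a protein with CCCH zinc fingers, and the series title places it directly downstream of MYB46, a transcription factor that switches on genes of secondary wall formation. Proteins with tandem CCCH zinc fingers are known to bind RNA in animals and yeast, where several of them speed the decay of their target transcripts, and plant members of the family have been described as binding RNA or DNA. A gene listed only by a locus code has been placed on the genome but has received no symbol in the tables used here. Those tables record all 49 lost genes as protein coding. For 33 of them the only other names are those of genomic clones, and 16 have no other name. No gene product is given, so the genes are ordered below by signal and by place in the genome, and no function is assigned to them.

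AtC3H14 itself read 244 in wild type against 8655 in 35S::AtC3H14, the direction of the genotype label. The median over all probe sets was 180 in wild type and 194 in 35S::AtC3H14. The 18 probe sets of the spiked hybridization controls were on average 1.44-fold higher on the 35S::AtC3H14 array, a mean log2 shift of 0.52. Of 91 marker genes of 14 tissues and conditions, the annotation used named 11 by a probe set of their own. Of these 11, 6 reached the floor on at least 1 array. That annotation lists no gene for 8730 of the 22746 probe sets, so a marker it does not name may still be read by the array. A marker with a value is 1 of the 11 named. The anther, tapetum and pollen markers with a value, 3 genes, had signals of at most 49.4, below the floor on both arrays. Of the phloem markers, SWEET11, a sucrose exporter, was the 1 with a value, and its signal was 5346 in wild type and 407 in 35S::AtC3H14. Of the root markers, PYK10, a beta-glucosidase, had 614 and 56.4, while EXPA7 and EXPA18 lay below the floor on both arrays. RCA, the leaf marker with a value, had 18741 and 19298. Of the cold-response markers, COR15A had 191 and 593 and COR47 had 6191 and 3201, and of the clock markers GI had 600 and 521. Whether a change in tissue make-up has a part in the lost genes was not tested. The lists of xylem and fibre, epidermis, flower, seed, senescence, jasmonate and salicylate genes had no member named in that annotation. No values are therefore given for them, which does not mean that the array lacks them.

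Of 4747 locus-code-only probe sets at 208.0 or more in wild type, 49 lay below the floor in 35S::AtC3H14, 1.03%. This share is fixed by the rule and is given as background. Over all 22746 probe sets, those under 208.0 in wild type included, the same thresholds took 116, or 0.51%. Of the 116, 56 had no gene listed and 1 named several genes. The 0.51% has another base than the 1.03% and cannot be set against it. Counted the same way, the locus-code-only probe sets gave 49 of 11931. The thresholds turned round took 71 of 4857 locus-code-only probe sets, 1.46%, so that more genes were gained than lost. Lost genes made up 40.8% of the 120 lost or gained. That split depended on the scaling of the arrays. It was 48.8% after centring on the medians, 50.8% after loess, 52.1% after quantile normalization and 78.4% after scaling to the hybridization controls. Each of these 4 scalings lowers 35S::AtC3H14 signals on balance against wild type, so that the 49 genes stay within the thresholds under them is no sign of stability.

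**Figure D1:**
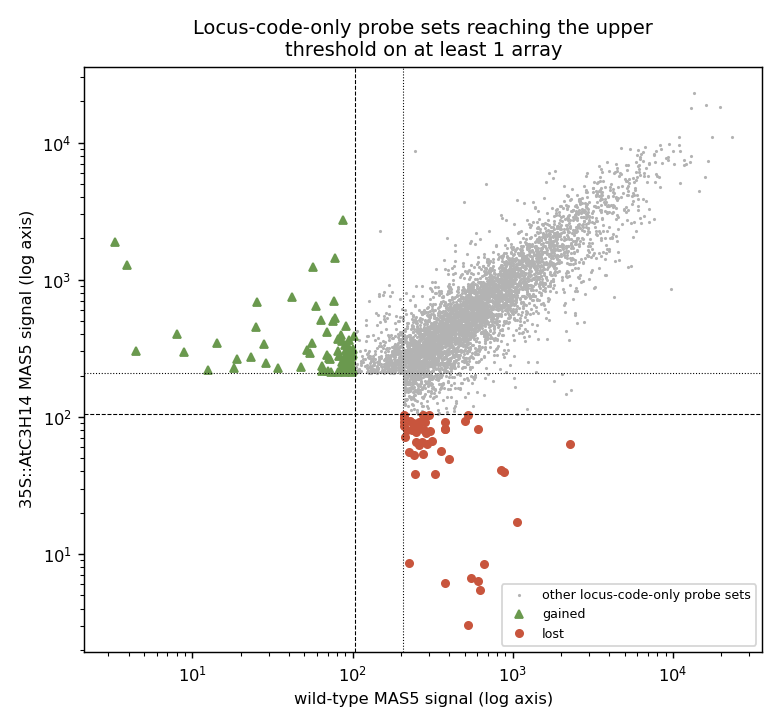
Signal on the wild-type array (x) against the 35S::AtC3H14 array (y), both log axes, for locus-code-only probe sets that reached 208.0 on at least 1 array. Dashed lines mark the floor of 104.0 and dotted lines 208.0. The 49 lost genes lie at the lower right and the 71 gained genes at the upper left, and most of both groups sit close to the thresholds.

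The wild-type signals of the lost genes ran from 208 to 2278 with a median of 282, and 37 of the 49 were under 416. In 35S::AtC3H14 their signals ran from 3.01 to 104 with a median of 76.0. Signals below the floor have no order, so each difference is a bound, the wild-type signal over 104.0. The bounds ran from at least 2.0-fold to at least 21.9-fold lower with a median of 2.71-fold, a log2 value of -1.44, against a median log2 ratio of 0.06 over all 6679 measured locus-code-only probe sets. A bound of at least 3-fold was reached by 20 genes, at least 4-fold by 12, at least 5-fold by 11 and at least 8-fold by 4. Where a gene had more than 1 probe set above the floor (58 genes with 117 probe sets), the log2 ratios within a gene varied with an SD of 0.35. This SD holds no variation between plants, extractions or arrays.

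**Figure D2:**
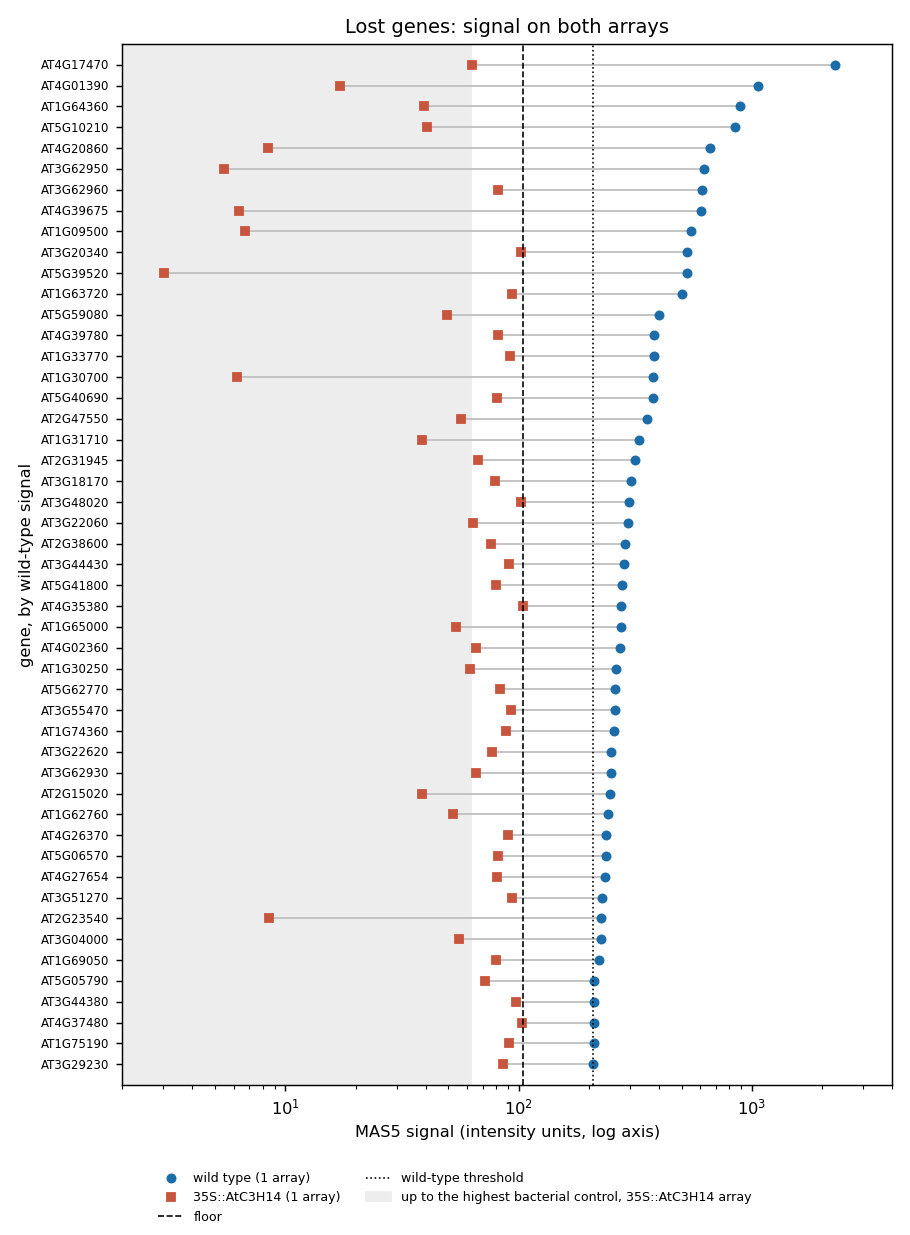
Signal of each of the 49 lost genes on the wild-type array (blue circle) and the 35S::AtC3H14 array (red square), on a log axis. The dashed line is the floor of 104.0, the dotted line the wild-type threshold of 208.0, and the shading runs up to 62.4, the highest bacterial control on the 35S::AtC3H14 array. AT4G17470 stands apart at the top with 2278 in wild type, and 18 of the 35S::AtC3H14 signals lie in the shading.

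AT4G17470 had a wild-type signal of 2278 against 63.0 in 35S::AtC3H14 and was at least 21.9-fold lower. This bound is the largest of the 49. AT4G01390 had 1066 in wild type and 17.2 in 35S::AtC3H14, at least 10.3-fold lower. AT1G64360 had 886 and 39.4, at least 8.52-fold lower. AT5G10210 had 844 and 40.7, at least 8.11-fold lower. These 4 were the genes lost on a probe set with 832 or more in wild type, out of 1591 locus-code-only probe sets in that range, and AT1G31710 has a further probe set in it, described below.

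A group of 8 genes had wild-type signals between 500 and 662. AT4G20860 had 662 in wild type and 8.45 in 35S::AtC3H14, at least 6.36-fold lower. AT3G62950 had 622 and 5.48, at least 5.98-fold lower. Its neighbour AT3G62960 had 610 and 81.9, at least 5.86-fold lower. The 3 bounds are close together because the wild-type signals are, and the 35S::AtC3H14 signals below the floor do not order them. AT4G39675 had 603 and 6.31, at least 5.80-fold lower. AT1G09500 had 548 and 6.70, at least 5.27-fold lower. AT5G39520 had 527 and 3.01, at least 5.07-fold lower. In AT3G20340 and AT1G63720 the 35S::AtC3H14 signal was itself close to the floor. AT3G20340 had 527 in wild type and 103 in 35S::AtC3H14, at least 5.07-fold lower. AT1G63720 had 501 and 93.7, at least 4.81-fold lower.

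The last 3 of the 15 largest bounds came from dimmer genes. AT5G59080 had 399 in wild type and 49.5 in 35S::AtC3H14, at least 3.83-fold lower. AT4G39780 had 380 and 81.7, at least 3.65-fold lower. AT1G33770 had 379 and 91.5, at least 3.64-fold lower. A further 5 genes had bounds between 3.02-fold and 3.63-fold, with wild-type signals from 314 to 378: AT1G30700, AT5G40690, AT2G47550, AT1G31710 and AT2G31945. Their 35S::AtC3H14 signals ran from 6.20 to 81.2.

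The remaining 29 genes had bounds from 2.0-fold to 2.92-fold, wild-type signals from 208 to 303 with a median of 249, and 35S::AtC3H14 signals from 8.55 to 104 with a median of 80.1. From the highest bound down, these are AT3G18170, AT3G48020, AT3G22060, AT2G38600, AT3G44430, AT5G41800, AT4G35380, AT1G65000, AT4G02360, AT1G30250, AT5G62770, AT3G55470, AT1G74360, AT3G22620, AT3G62930, AT2G15020, AT1G62760, AT4G26370, AT5G06570, AT4G27654, AT3G51270, AT2G23540, AT3G04000, AT1G69050, AT5G05790, AT3G44380, AT4G37480, AT1G75190 and AT3G29230.

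The control probe sets for bacterial transcripts that were not spiked as hybridization controls give a level for probe sets with no stem transcript to read. On the 35S::AtC3H14 array the highest of these 27 was 62.4. Of the lost genes, 18 had a 35S::AtC3H14 signal at or under that level and 31 lay between it and the floor. The 18 included 9 of the 15 genes with the largest bounds, 3 of the next 5 and 6 of the 29 with bounds under 3-fold. These counts place the genes against the controls and do not rank them by how far they lay below the floor.

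Genes near the thresholds show how finely the choice falls. The 3 just inside the wild-type threshold were AT3G29230 at 208.04, AT1G75190 at 209.59 and AT4G37480 at 209.60. The 3 just outside it were AT1G23140 at 207.6, AT5G62140 at 207.5 and AT5G35480 at 207.0, all below the floor in 35S::AtC3H14. On the other threshold, AT4G35380 at 103.97, AT4G37480 at 102.9 and AT3G48020 at 102.7 were just inside. Just outside it were AT2G17650 at 104.3, AT1G50590 at 104.5 and a second probe set of AT1G31710 at 104.8.

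A second probe set gave a further reading of some lost genes, though it too had been screened by the rule and had not met it. AT1G31710 was chosen on a probe set with 327 in wild type and 38.4 in 35S::AtC3H14. Its other probe set had 1063 and 104.8, a log2 ratio of -3.34, so both gave a lower signal in 35S::AtC3H14. The brighter one was left out of the lost probe sets by its 35S::AtC3H14 signal alone. AT1G62760 was chosen on a probe set with 242 and 52.3. Its other probe set had 21.7 and 3.04, below the floor on both arrays, and gave no ratio. The other 47 lost genes were named by 1 probe set each.

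The share of genes lost differed between bands of wild-type signal, in an order that the floor helps to set, since a brighter transcript must be lower by a larger factor to reach it. Between 208 and 416, 37 of 1635 locus-code-only probe sets were lost, 2.26%. Between 416 and 832 it was 8 of 1521, 0.53%, and at 832 or more 4 of 1591, 0.25%. By a fixed size of 2-fold the order was the other way. At least 2-fold lower were 88 probe sets (5.38%) in the dimmest band, 87 (5.72%) in the middle one and 159 (9.99%) in the brightest. The gained genes had shares of 3.39%, 0.56% and 0.32% over the same bands of 35S::AtC3H14 signal.

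**Figure D3:**
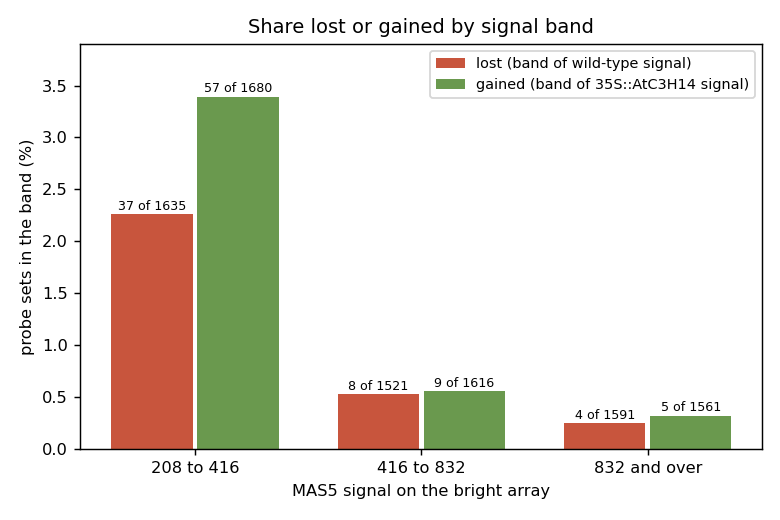
Percent of locus-code-only probe sets lost (red, by band of wild-type signal) or gained (green, by band of 35S::AtC3H14 signal), with the counts above each bar. Both shares are largest between 208 and 416 and smallest at 832 and over, and in each band the gained share is the larger.

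Lost genes lay on all 5 chromosomes, with 12 on chromosome 1, 5 on chromosome 2, 14 on chromosome 3, 10 on chromosome 4 and 8 on chromosome 5. As a share of the locus-code-only probe sets at 208.0 or more in wild type, this was 0.96%, 0.71%, 1.43%, 1.49% and 0.70%. In the gene order of the TAIR10.1 table, counting protein-coding genes, most lost genes stood alone. There were 3 pairs of successive lost genes with fewer than 5 genes between them, and 2 of these pairs lay in the same stretch of chromosome 3.

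In that stretch AT3G62930, AT3G62950 and AT3G62960 were lost, and AT3G62940, which lies among them, is not named by a probe set of its own here. AT3G62930 had 249 in wild type and 65.4 in 35S::AtC3H14. AT3G62950 and AT3G62960, given above, lay next to each other and had nearly the same wild-type level. On either side of the 3, AT3G62920 had 182 and 138, 1.32-fold lower, and AT3G62970 had 1017 and 767, 1.33-fold lower. The lost genes were chosen for their difference, and the wild-type signal of AT3G62920 is below the threshold, so this contrast is partly set by the choice. Neighbouring genes of like sequence can share probe signal, and this was not tested.

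**Figure D4:**
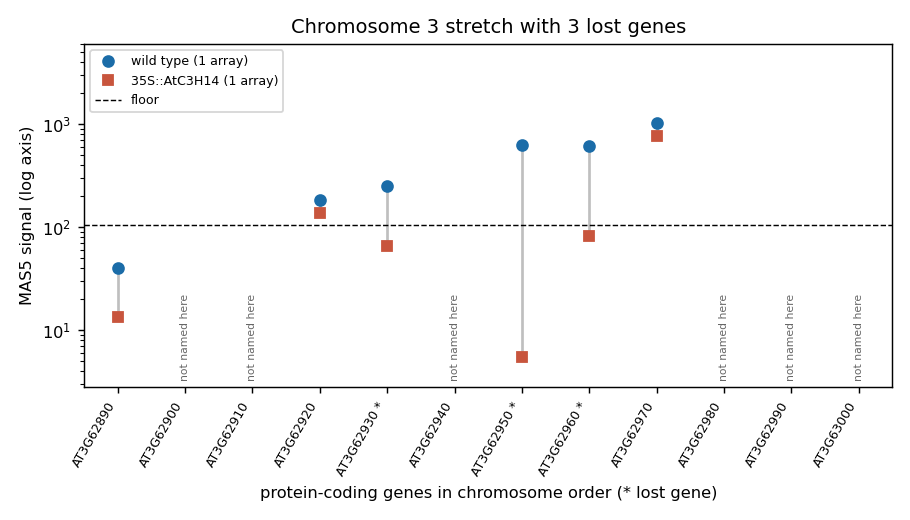
Signal (log axis) on the wild-type array (blue circle) and the 35S::AtC3H14 array (red square) for 6 of 12 successive protein-coding genes in chromosome order, with the floor dashed and the lost genes starred. The other 6 are marked as not named by a probe set of their own. AT3G62930, AT3G62950 and AT3G62960 cross the floor, while AT3G62920 and AT3G62970 stay above it on both arrays.

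The other close pair was AT3G44380 and AT3G44430, also on chromosome 3, with 3 genes between them. AT3G44380 had 211 in wild type and 97.3 in 35S::AtC3H14, and AT3G44430 had 282 and 91.0. Of the genes between, AT3G44400 had 155 and 105, 1.47-fold lower, and the others are not named by a probe set of their own here. AT3G44370, on the outer side, had 111 and 89.9 and a bound of 1.07-fold.

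The genes directly beside a lost gene are given without those that were lost themselves. Those with a locus code alone had been screened by the rule and had not met it. Their values are therefore not a reading apart from the choice. Of 95 such genes, 37 were named by a probe set of their own and reached the floor on at least 1 array. Of the 37, 4 (10.8%) were at least 2-fold lower and 2 (5.41%) at least 2-fold higher. Among all 7565 other measured genes named by a probe set, 4.51% were at least 2-fold lower and 5.02% at least 2-fold higher. The flanking share rests on 4 genes and was not tested. With 2 genes on each side it was 4 of 65 (6.15%), with 3 it was 5 of 88 (5.68%) and with 5 it was 7 of 142 (4.93%), so at wider distances it was near the share of all genes. The median log2 ratio of the 37 was -0.09, against 0.07 over all other genes.

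AT1G64370 was the flanking gene that differed most. It lies beside AT1G64360, and its signal was 9741 in wild type and 852 in 35S::AtC3H14, 11.4-fold lower, a log2 ratio of -3.52. On the other side of AT1G64360, AT1G64355 had 567 and 382, 1.49-fold lower. The other flanking genes at least 2-fold lower were AT1G30260 (768 and 280, beside AT1G30250), AT1G33780 (2228 and 1070, beside AT1G33770) and AT2G38610 (1701 and 831, beside AT2G38600). All 4 kept signals of 280 or more in 35S::AtC3H14. AT1G65010, beside AT1G65000, had 346 and 777, 2.25-fold higher. AT1G74370, beside AT1G74360, had 167 and 395, 2.36-fold higher. AT4G39670, beside AT4G39675, had 146 and 13.1, and with a wild-type signal this close to the floor its bound was 1.40-fold.

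**Figure D5:**
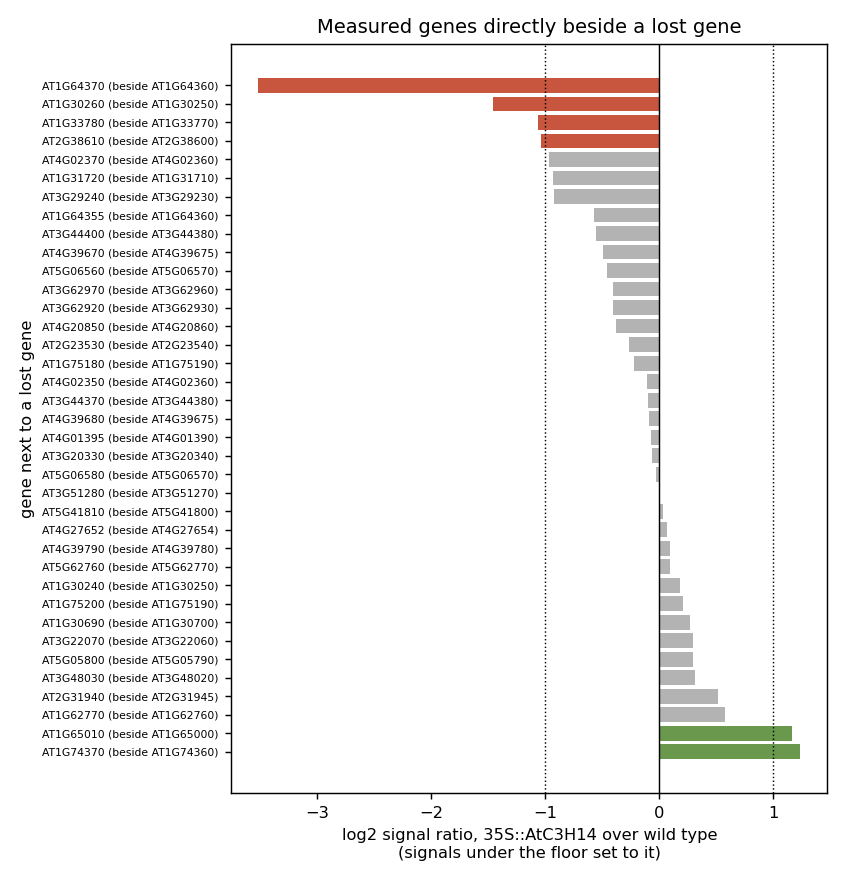
Log2 signal ratio, 35S::AtC3H14 over wild type, of the 37 measured genes directly beside a lost gene, with the lost gene in brackets and signals below the floor set to it. Dotted lines mark 2-fold. Bars in red are the 4 genes at least 2-fold lower, led by AT1G64370 at -3.52, bars in green the 2 at least 2-fold higher, and bars in grey the other 31.

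Genes that carry a symbol and were named by a probe set of their own gave a point of comparison for the count. Of 851 of their probe sets at 208.0 or more in wild type, 10 met the same thresholds, 1.18%, beside 1.03% of the locus-code-only probe sets. Other genes with a symbol, such as TIR1 and APG3, were not so named. Of the 116 probe sets that met the thresholds, 56 had no gene listed. The 851 and the 10 are therefore no full account of genes with a symbol. The 10 were JRG21, ADPG1, RALFL31, PYK10, scpl30, AtLEA4-1, ATSPS4F, HRD, CML38 and JMT, and they were chosen by the same signals. Their bounds ran from 2.09-fold for JMT to 8.75-fold for JRG21, within the range of the locus-code-only genes. JMT, the methyltransferase that makes methyl jasmonate, had 217 in wild type and 7.56 in 35S::AtC3H14. ADPG1, a polygalacturonase that acts in pod opening, had 678 and 56.8. CML38, a calmodulin-like calcium-binding protein, had 325 and 102. JRG21 had the highest wild-type signal of the 10, 910.

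The 71 gained genes, the mirror of the lost ones, had 35S::AtC3H14 signals from 211 to 2723 with a median of 284. Their median bound was 2.73-fold higher, against 2.71-fold lower for the lost genes, and the largest was 26.2-fold. Bounds of at least 4-fold were reached by 14 gained and 12 lost genes, and bounds of at least 8-fold by 5 and 4. In wild type 20 of the 71 had a signal at or under the highest bacterial control on that array, 56.5, against 18 of 49 lost genes in 35S::AtC3H14.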

How the data were processed

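The deposited values are MAS5 signal intensity values per probe set on a linear scale, per the submitters' processing notes (version not given in the sources used here); detection calls were not used. The 2% trimmed mean of the deposited values was 500.04 on each array, so a change common to all transcripts is hidden. The 64 control probe sets were set apart. The floor was the 40th percentile of all other signals of both arrays, 104.0, and the wild-type threshold 2 times the floor. Ratios are 35S::AtC3H14 over wild type on the log2 scale, with signals below the floor set to it and none given where both were below. Probe sets were named from the platform annotation: 13513 named 1 gene, 503 several and 8730 were not listed. Symbols and gene order came from the TAIR10.1 table. For flanking genes the brightest probe set of a gene was used. With 1 array per group there was no test, standard error or p-value, and precision is limited by the number of arrays. The code of the rule and the bound was run on simulated data, a check that it follows their definitions and not a test of the lost genes. The lost genes and all lists were chosen with earlier results of these data known.

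Genes named in full were the 15 with the largest bounds and those around each threshold; the grouping by product, the search for relatives, and protein and promoter sequences, which had been planned, were not analysed here because the tables used give neither products nor sequences. Other lost genes, flanking genes and genes with a symbol were named after their values were seen. Alternatives were median centring, quantile normalization, loess with a span of 0.4, scaling to the hybridization controls, other thresholds, no floor, and a pseudocount of 100. Calculations used Python 3.11.15, numpy 2.4.6, pandas 2.3.3 and statsmodels 0.14.6.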

Additional observations from a re-analysis of the deposited data

Results flagged for a closer look

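The control probe set for 25S ribosomal RNA, which enters no comparison of the lost genes, read 361 in wild type against 4209 in 35S::AtC3H14, 11.6-fold higher. It is given because a control outside the comparison stood above its wild-type level. Its part in the lost genes was not tested.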

How the results depend on the processing

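The hybridization-control scaling, which by construction lowers every 35S::AtC3H14 signal, gave 116 lost and 32 gained genes in place of 49 and 71, and 1.13% of all probe sets in place of 0.51%. Median centring, quantile normalization and loess gave 59 to 62 lost and 57 to 62 gained genes. With the upper threshold at 3 times the floor, 20 were lost and 26 gained. With the low array below 0.5 times the floor, 13 were lost and 18 gained. With both thresholds at 1.5 times, 47 were lost, of which 20 were among the 49. Without a floor the median log2 ratio was -2.08, which rests on signals that have no order, and with the pseudocount it was -1.17, with 16 of the 49 under 2-fold. The choice of the 49 fixes their direction under these alternatives. Among genes directly beside a lost gene, an analysis added after seeing the data, the hybridization-control scaling gave 25.8% (8 of 31) at least 2-fold lower, against 14.8% of all other genes. Quantile normalization gave 3 of 36. Leaving out an array in turn was not possible with 1 array per group. No paired analysis was possible because each group had 1 sample. The alternatives on relatives by protein identity were not run.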
